A study of Mus musculus with 10 samples.

Results

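The troponin subunit genes are Tnnt1, Tnnt2 and Tnnt3, which encode troponin T, Tnni1, Tnni2 and Tnni3, which encode troponin I, and Tnnc1 and Tnnc2, which encode troponin C. They were taken by gene symbol, and all 8 were found among the 23337 genes counted.

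Bulk RNA-Seq was performed on left ventricle (LV) and skeletal muscle (SkM) of mice with a heterozygous deletion of E0, an enhancer in intron 1 of the titin gene Ttn. There were 2 wild-type (WT) and 3 E0del/+ mice, each giving 1 library per tissue, so that 10 libraries were compared. Total counts ranged from 11010021 to 17484873 per library. Both groups were C57BL/6/129SvEv hybrids, bred from C57BL/6 mice that carried the deletion on 1 chromosome and from 129SvEv WT mice, and no treatment is named for either group. The deletion was made with CRISPR/Cas9 and lies on the C57BL/6 chromosome, and E0del names a single line of those made. The age and sex of these mice and the muscle sampled are not given in the sources used here. Libraries carry a batch number equal to the replicate number, and batch 3 held E0del/+ mice only.

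Troponin is the calcium switch of the thin filament in striated muscle. Troponin C binds calcium, troponin I holds back the interaction of actin with myosin, and troponin T ties the complex to tropomyosin. In the adult mouse the ventricle uses Tnnt2, Tnni3 and Tnnc1, slow fibres use Tnnt1, Tnni1 and Tnnc1, and fast fibres use Tnnt3, Tnni2 and Tnnc2, so that Tnnc1 is both the cardiac and the slow gene.

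Ttn, the gene that holds the deleted enhancer, was counted at 7959 and 9344 CPM (the usual scaling of a count to the total of its library) in WT LV replicates 1 and 2. In E0del/+ LV it was at 7737, 5560 and 6597 CPM in replicates 1 to 3. In SkM it was at 24205 and 15856 CPM in WT and at 20092, 18854 and 13585 CPM in E0del/+. Every E0del/+ LV value lay below both WT LV values, and the SkM groups overlapped. In LV the CPM values of the genotypes did not overlap for 15.4% of the 13420 genes tested. The higher WT LV value is that of replicate 2, a library with fast fibre markers at 38559 CPM. Ttn was higher in every SkM library than in any LV library. The part of fast fibre RNA in the Ttn value of WT LV replicate 2 was not tested. The log2 fold change of Ttn, E0del/+ against WT, was -0.45 in LV (SE 0.27) and -0.17 in SkM (SE 0.24), with adjusted p of 0.997 and 1.00 by edgeR's quasi-likelihood test. Without WT LV replicate 2 it was -0.25 in LV (SE 0.39). In SkM the log2 fold change of Ttn was 0.02 without WT replicate 1, -0.33 without WT replicate 2 and -0.01 with replicates as a block. A count over the whole gene does not read the deleted intron, so that it does not check the genotype labels directly.

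The T and I genes lie in pairs on the mm10 build. Tnnt2 (chr1:135836386-135852261, plus strand, 16 exons) lies 25396 bases from Tnni1 (chr1:135799421-135810989, plus strand, 10 exons), with Lad1 between them. Tnnt1 (chr7:4504663-4515975, minus strand, 14 exons) lies 2332 bases from Tnni3 (chr7:4518308-4522443, minus strand, 8 exons), with no gene of the files between them. Tnnt3 (chr7:142498836-142516009, plus strand, 19 exons) lies 54430 bases from Tnni2 (chr7:142442468-142444405, plus strand, 6 exons), with Lsp1 between them. A cardiac gene is thus the neighbour of a slow gene in both of the first pairs, and fast lies beside fast. The C genes stand alone, Tnnc1 at chr14:31208312-31211711 on the plus strand and Tnnc2 at chr2:164777162-164779734 on the minus strand, each with 6 exons.

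The promoters of 6 of the 8 troponin genes were found among the RefSeq sequences of GRCm38.p6, and Tnni2 and Tnnt3 are named only. Those of Tnnt1, Tnni1 and Tnnc1 are shown because their levels ran in the same order over the SkM libraries, that of Tnnt2 as the most abundant cardiac gene and that of Tnnc2 as the only fast gene found. That of Tnni3 was searched with them and is not printed. Each run is the 250 bases before the annotated start, 5′ to 3′ on the gene's strand. The positions are chr1:135836084-135836333 (plus) for Tnnt2, chr7:4515976-4516225 (minus) for Tnnt1, chr1:135799171-135799420 (plus) for Tnni1, chr14:31208062-31208311 (plus) for Tnnc1 and chr2:164779735-164779984 (minus) for Tnnc2. Capitals mark matches, on either strand, to the MCAT motif CATTCC, the E-box CANNTG, the GATA motif GATAA and the TATA motif TATAAA, none of which overlapped another in these windows.
Tnnt2: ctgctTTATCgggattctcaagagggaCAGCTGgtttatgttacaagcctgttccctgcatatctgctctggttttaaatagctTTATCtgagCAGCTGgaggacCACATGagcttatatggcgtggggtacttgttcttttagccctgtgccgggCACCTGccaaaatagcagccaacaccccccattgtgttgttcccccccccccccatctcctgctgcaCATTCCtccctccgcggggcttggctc
Tnnt1: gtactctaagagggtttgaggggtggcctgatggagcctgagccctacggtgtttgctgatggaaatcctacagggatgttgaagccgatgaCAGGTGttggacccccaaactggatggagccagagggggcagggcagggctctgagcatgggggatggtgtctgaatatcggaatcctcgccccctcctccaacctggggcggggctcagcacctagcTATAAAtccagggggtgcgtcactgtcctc
Tnni1: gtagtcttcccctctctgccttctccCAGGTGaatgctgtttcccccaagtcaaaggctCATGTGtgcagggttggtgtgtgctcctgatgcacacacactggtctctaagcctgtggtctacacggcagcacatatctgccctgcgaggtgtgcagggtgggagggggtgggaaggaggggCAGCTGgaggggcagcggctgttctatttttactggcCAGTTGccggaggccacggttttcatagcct
Tnnc1: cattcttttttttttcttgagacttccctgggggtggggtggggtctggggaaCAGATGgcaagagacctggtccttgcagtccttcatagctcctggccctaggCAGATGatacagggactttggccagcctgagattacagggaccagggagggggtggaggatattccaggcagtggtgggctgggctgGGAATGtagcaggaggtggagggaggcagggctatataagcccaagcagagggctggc
Tnnc2: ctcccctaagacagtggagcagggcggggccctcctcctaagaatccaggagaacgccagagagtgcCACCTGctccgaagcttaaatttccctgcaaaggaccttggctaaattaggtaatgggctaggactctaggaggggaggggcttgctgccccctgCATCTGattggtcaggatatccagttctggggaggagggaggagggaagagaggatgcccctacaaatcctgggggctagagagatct
MCAT matched in Tnnt2 and Tnnc1, the E-box in all 6 promoters, GATA in Tnnt2 and TATA in Tnnt1. Of 32851 promoter windows of the same length, 12.6% held MCAT, 66.2% an E-box, 22.6% GATA and 12.4% TATA. The MEF2 and CArG motifs, held by 0.508% and 1.47% of windows, had no match in the 6 promoters. The starts used for Tnnt2 and Tnni3 lie 52 and 85 bases from the first exon of the files.

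How far reads could be shared between genes was checked on GENCODE M21 transcripts. No run of 50 bases was shared between troponin genes, the longest being 22 bases between Tnni1 and Tnni2. In Tnnc2, 358 of 651 runs of 50 bases also lay in Ube2c, which is encoded on the opposite strand over the Tnnc2 exons, and in Tnni3 37 of 1341 lay in Dnaaf3. Nisch spans Tnnc1 exons and Gm14492 spans Tnnt3 exons, each on the opposite strand, but no run of Tnnc1 or Tnnt3 lay in a transcript of another gene. In the exons of the files, Tnnc2 shared 0 bases with Ube2c, Tnnc1 0 with Nisch and Tnnt3 0 with Gm14492. Nisch was at 109 to 148 CPM in SkM, above Tnnc1 in every SkM library, and Gm14492 at 35.6 to 46.0 CPM in the 4 LV libraries other than WT replicate 2, above Tnnt3 there. Reads of their unspliced RNA over these exons were not tested. Without strand, reads of the shared part cannot be assigned to Tnnc2 or Ube2c, while the other Tnnc2 runs were not shared. Ube2c itself was counted at 0.999, 1.24, 1.63 and 1.13 CPM in the 4 LV libraries other than WT replicate 2, where Tnnc2 was at 2.54 to 3.75 CPM. It was at 3.87 CPM in WT LV replicate 2 and at 0.466 to 1.17 CPM in SkM, far below Tnnc2 there.

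The tissue labels were checked against markers. The 6 ventricle markers (Myl2, Myl3, Myh6, Mybpc3, Ryr2 and Nppb) summed to 50574 to 73079 CPM in LV and 79.1 to 438 CPM in SkM, with Myh6, the main ventricular myosin of the mouse, the most abundant in every LV library. The 8 fast fibre markers (Myh4, Myh1, Myh2, Mylpf, Actn3, Atp2a1, Pvalb and Mybpc2) summed to 156326 to 165435 CPM in SkM, with Myh4 the most abundant. No ventricle or fast fibre marker was at 0 in any library.

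WT LV replicate 2 stood apart from the other LV libraries. Its fast fibre markers summed to 38559 CPM, against 189, 223, 202 and 209 CPM in WT LV replicate 1 and E0del/+ LV replicates 1 to 3. Myh4, the myosin of the fastest fibres, was at 18473 CPM there and at 70.3 to 81.7 CPM in the other 4. The adipose markers summed to 267 CPM there and to 1.83 to 23.6 CPM in the other 4, led by Cfd in each. Fold changes and slow shares in LV are therefore given with and without this library.

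Tnnt2, the cardiac troponin T, was at 7648 CPM in WT LV replicate 1, 5868 CPM in WT LV replicate 2, and 7664, 9751 and 8831 CPM in E0del/+ LV replicates 1 to 3. In SkM it was at 7.99 and 9.95 CPM in WT replicates 1 and 2 and at 30.3, 11.7 and 9.64 CPM in E0del/+ replicates 1 to 3. Tnnt2 was thus high in every LV library and low in every SkM library, and the highest SkM value was that of E0del/+ replicate 1. The ventricle markers were also highest in that SkM library, at 438 CPM against 222, 79.1, 361 and 105 CPM in WT SkM replicates 1 and 2 and E0del/+ SkM replicates 2 and 3. Mybpc3, the cardiac myosin-binding protein C, was at 31.1 CPM there and at 5.09 to 7.80 CPM in the other 4. Their part in the Tnnt2 value was not tested.

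Tnnt3, the fast troponin T, was at 6945 and 10286 CPM in WT SkM and at 7029, 7144 and 8595 CPM in E0del/+ SkM. In LV it was at 8.30 CPM in WT replicate 1, 1868 CPM in WT replicate 2, and 10.3, 9.26 and 8.46 CPM in E0del/+. The LV value of WT replicate 2 was thus far above the other 4 LV values, which lay close together.

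Tnnt1, the slow troponin T, was at 56.6 and 5.20 CPM in WT SkM and at 65.7, 95.8 and 13.3 CPM in E0del/+ SkM. In LV it was at 6.91 and 6.66 CPM in WT and at 5.21, 5.45 and 6.28 CPM in E0del/+. WT SkM replicate 2 and E0del/+ SkM replicate 3 were the low SkM libraries, and the former held no more Tnnt1 in CPM than the LV libraries did. In LV each of the 3 E0del/+ values was lower than either WT value.

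The share of each gene in its subunit was taken from counts per length, since the genes differ in exon length. In the 4 LV libraries without WT replicate 2, Tnnt2 made up 99.8% ± 0.0286 of troponin T (SD, n = 4), Tnnt3 0.115% ± 0.0194 and Tnnt1 0.0909% ± 0.0182. In WT LV replicate 2, Tnnt2 made up 74.6% (Wilson 95% interval 74.3 to 74.9) and Tnnt3 25.3% (25.0 to 25.6). Its Tnnt1 share was 0.108% (0.0862 to 0.136), within the range of the other LV libraries. Such intervals cover counting error only.

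In SkM, Tnnt3 made up 99.0% ± 0.709 of troponin T (SD, n = 5) and Tnnt2 0.171% ± 0.130. The slow share, Tnnt1, was 0.967% (0.902 to 1.04) and 0.0606% (0.0494 to 0.0744) in WT SkM replicates 1 and 2. In E0del/+ SkM it was 1.11% (1.04 to 1.17), 1.58% (1.5 to 1.66) and 0.185% (0.161 to 0.214) in replicates 1 to 3. WT replicate 2 and E0del/+ replicate 3 were thus the low libraries of their genotypes. In bulk tissue, fewer slow fibres and less slow troponin RNA per fibre cannot be told apart.

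**Figure D1:**
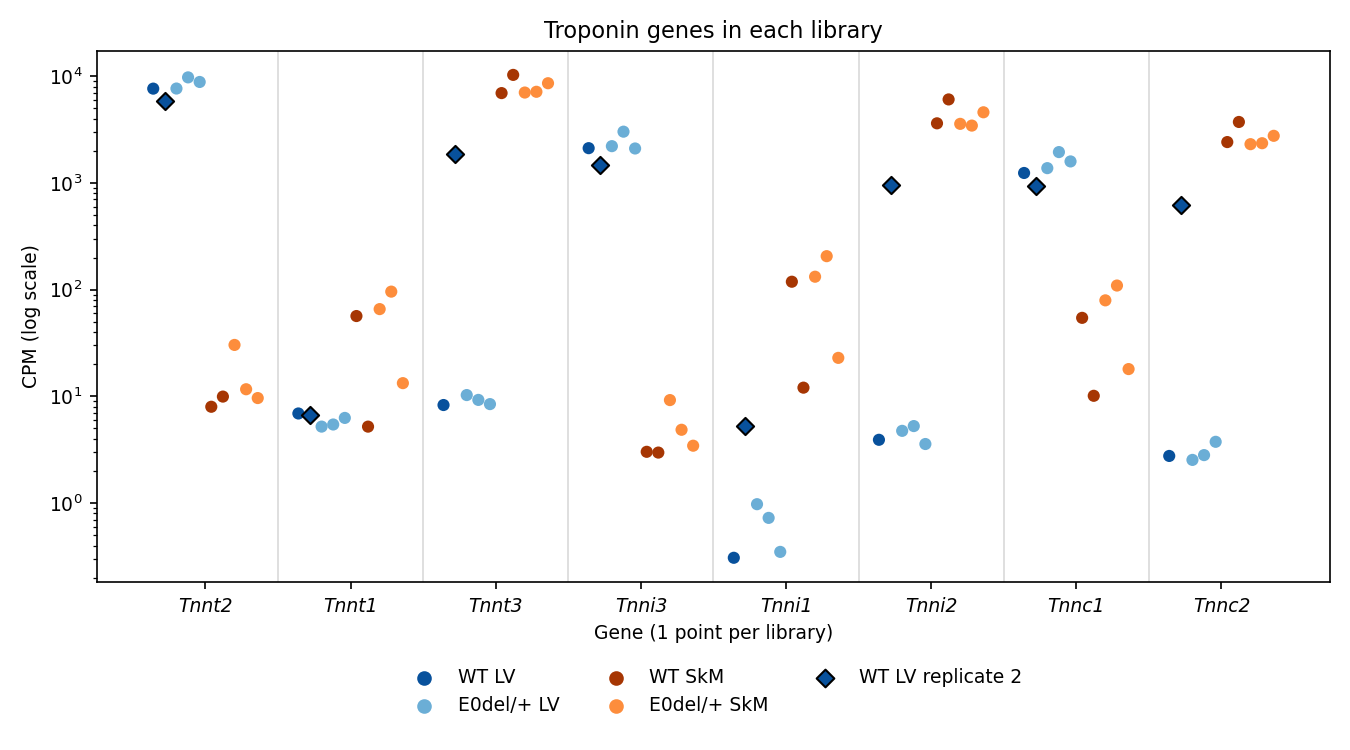
CPM (log axis) of each troponin gene in the 10 libraries, 1 point per library, colored by tissue and genotype, with WT LV replicate 2 as a diamond. The fast genes of WT LV replicate 2 sit at 627 to 1868 CPM, far above the other LV libraries.

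Tnni3, the cardiac troponin I, was at 2117 CPM in WT LV replicate 1, 1464 CPM in WT LV replicate 2, and 2211, 3022 and 2102 CPM in E0del/+ LV. In SkM it was at 3.02 and 2.97 CPM in WT and at 9.23, 4.86 and 3.45 CPM in E0del/+. Every E0del/+ SkM value lay above both WT values, at the lowest levels of the family in SkM.

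Tnni2, the fast troponin I, was at 3618 and 6059 CPM in WT SkM and at 3577, 3446 and 4591 CPM in E0del/+ SkM. In LV it was at 3.92 CPM in WT replicate 1, 956 CPM in WT replicate 2, and 4.75, 5.27 and 3.58 CPM in E0del/+. As with Tnnt3, WT SkM replicate 2 held the highest SkM value and WT LV replicate 2 the highest LV value.

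Tnni1, the slow troponin I, which the fetal heart also uses, was at 119 and 12.1 CPM in WT SkM and at 132, 206 and 22.9 CPM in E0del/+ SkM. In LV it rested on few counts, 4 and 58 in WT replicates 1 and 2 and 15, 8 and 4 in E0del/+ replicates 1 to 3. These are 0.307, 5.22, 0.976, 0.727 and 0.349 CPM, so that WT LV replicate 2 was again the highest LV library.

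Tnni3 made up 99.8% ± 0.0338 of troponin I per length in the 4 LV libraries without WT replicate 2 (SD, n = 4), Tnni2 0.229% ± 0.0249 and Tnni1 0.0183% ± 0.00997. In WT LV replicate 2, Tnni3 made up 55.3%, Tnni2 44.6% (44.0 to 45.2) and Tnni1 0.146% (0.113 to 0.188). Troponin I was thus more mixed in that library than troponin T.

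In SkM, Tnni2 made up 98.3% ± 1.43 of troponin I (SD, n = 5) and Tnni3 0.0961% ± 0.0655. The slow share, Tnni1, was 1.92% (1.83 to 2.02) and 0.119% (0.104 to 0.136) in WT SkM and 2.16% (2.07 to 2.25), 3.45% (3.33 to 3.57) and 0.298% (0.268 to 0.332) in E0del/+ SkM. The same 2 libraries were low as for Tnnt1.

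Tnnc1, the troponin C of heart and slow fibres, was at 1239 CPM in WT LV replicate 1, 944 CPM in WT LV replicate 2, and 1376, 1945 and 1590.0 CPM in E0del/+ LV. In SkM it was at 54.4 and 10.1 CPM in WT and at 79.4, 109 and 18.0 CPM in E0del/+. Its SkM values followed the slow genes and not the cardiac genes, with E0del/+ replicate 2 and not replicate 1 the highest.

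Tnnc2, the fast troponin C, was at 2414 and 3725 CPM in WT SkM and at 2307, 2355 and 2763 CPM in E0del/+ SkM. In LV it was at 2.77 CPM in WT replicate 1, 627 CPM in WT replicate 2, and 2.54, 2.82 and 3.75 CPM in E0del/+. The order of tissues and the high LV library were those of the other fast genes.

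Tnnc1 made up 99.8% ± 0.0417 of troponin C per length in the 4 LV libraries without WT replicate 2 (SD, n = 4), and 59.7% (59.0 to 60.4) in WT LV replicate 2, where Tnnc2 made up 40.3% (39.6 to 41.0). In SkM the Tnnc1 share was 2.17% (2.02 to 2.33) and 0.267% (0.230 to 0.309) in WT and 3.28% (3.10 to 3.46), 4.37% (4.16 to 4.58) and 0.638% (0.564 to 0.720) in E0del/+. The Tnnc1 share was above the slow shares of T and I in each SkM library, with the same low libraries.

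**Figure D2:**
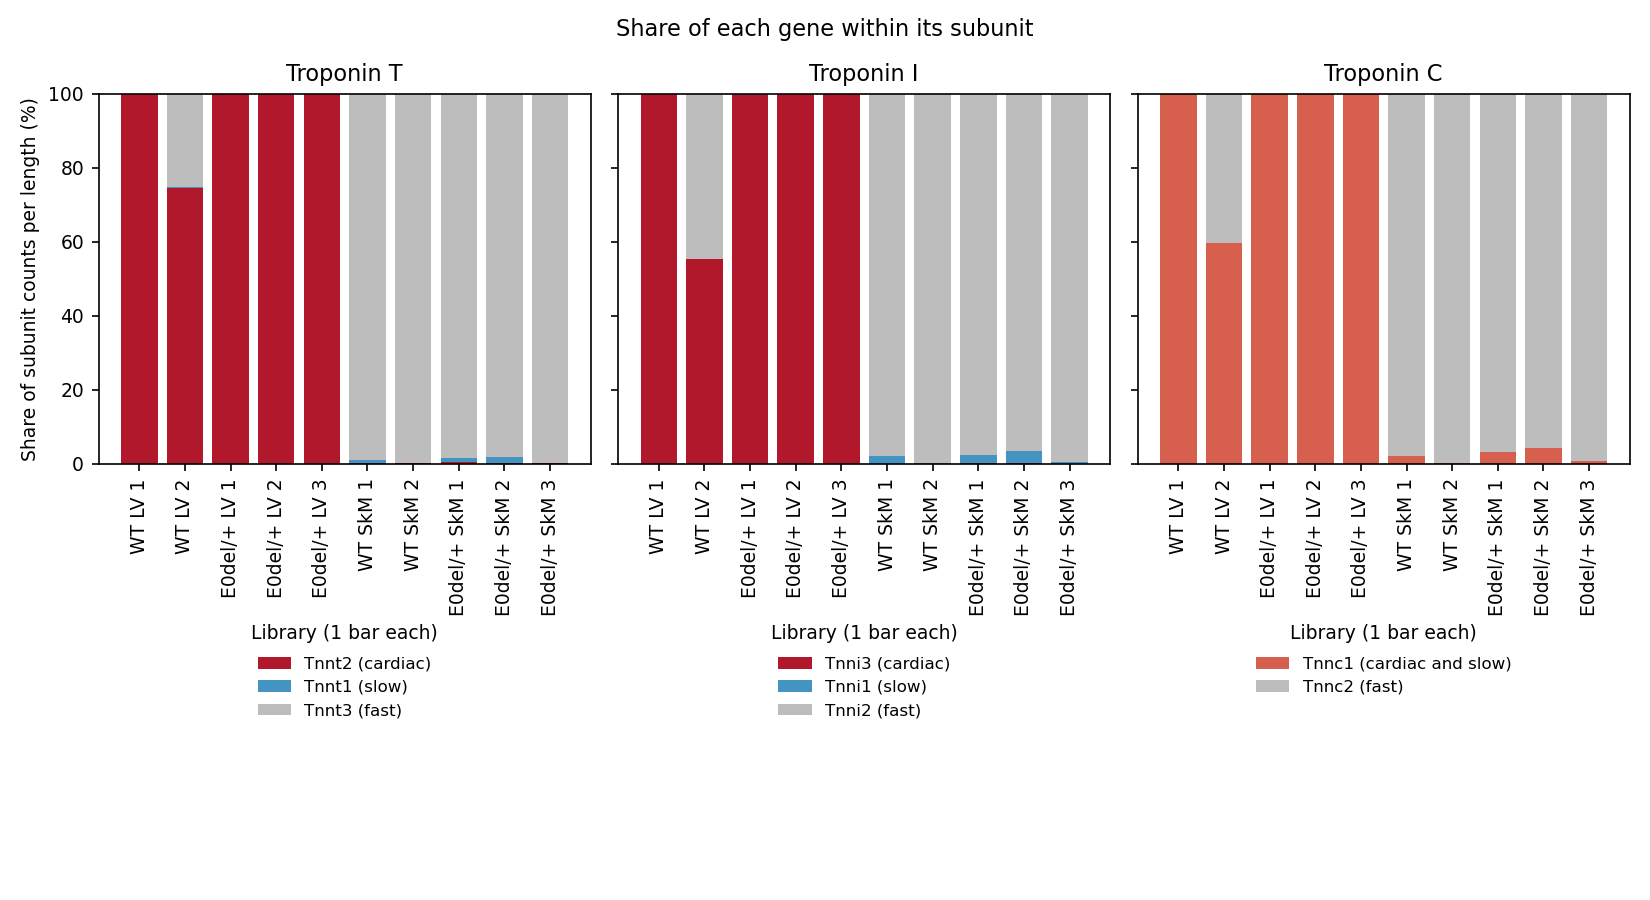
Share of each gene in its subunit (percent of counts per length) in the 10 libraries, 1 bar per library, for troponin T, I and C. LV bars are cardiac and SkM bars fast, apart from WT LV replicate 2, where the fast gene makes up 25.3% of T, 44.6% of I and 40.3% of C.

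Levels of different genes were compared as RPKM, CPM per kilobase of summed exon length. In the 4 LV libraries the order was Tnnt2 at 7102 ± 852 RPKM (SD, n = 4), Tnni3 at 2868 ± 536, Tnnc1 at 2187 ± 438, Tnnt3 at 8.10 ± 0.812, Tnni2 at 6.56 ± 1.16, Tnnt1 at 6.38 ± 0.838, Tnnc2 at 4.29 ± 0.775 and Tnni1 at 0.529 ± 0.287. Within libraries, each gene was above the next in 4 of 4, apart from Tnni2, which was above Tnnt1 in 2 of 4. The smallest steps were otherwise Tnnt3 over Tnni2, by 1.05 to 1.41 times, and Tnni3 over Tnnc1, by 1.13 to 1.46 times. In the 5 SkM libraries the order was Tnnt3 at 7136 ± 1290 RPKM (SD, n = 5), Tnni2 at 6384 ± 1657, Tnnc2 at 3921 ± 858, Tnni1 at 88.3 ± 72.7, Tnnc1 at 77.2 ± 59.2, Tnnt1 at 50.7 ± 40.4, Tnnt2 at 11.7 ± 7.77 and Tnni3 at 5.71 ± 3.21. Within libraries, each gene was above the next in 5 of 5, apart from Tnni1 over Tnnc1 (3 of 5) and Tnnt1 over Tnnt2 (4 of 5). The step from Tnni2 to Tnnt3 was 1.01 to 1.23 times.

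Summed over its genes, troponin T was at 7117 ± 851 RPKM in the 4 LV libraries and 7199 ± 1253 RPKM in SkM. Troponin I was at 2875 ± 537 RPKM in LV and 6478 ± 1594 RPKM in SkM, and troponin C at 2191 ± 438 and 3998 ± 813 RPKM. The T to C ratio of these sums was 3.29 ± 0.279 in LV and 1.81 ± 0.0816 in SkM, and the I to C ratio 1.32 ± 0.140 and 1.61 ± 0.0898. Transcripts of the subunits, which join in equal numbers as proteins, were thus not counted in equal numbers per length in either tissue. In WT LV replicate 2 the ratios were 2.93 for T to C and 1.43 for I to C, and the sums 6592, 3214 and 2249 RPKM for T, I and C. These sums lay within the range of the other LV libraries, so that the mixed shares of that library came with no larger total. All 8 genes held 1.24% ± 0.170 of the counts in LV (n = 4) and 1.52% ± 0.300 in SkM (n = 5).

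Tissues were compared within mice, SkM against LV, over 4 mice without WT replicate 2. All 8 troponin genes passed the threshold of edgeR's quasi-likelihood test. The 5 higher in SkM compare with 29.8% of the 13375 genes tested, and the 3 lower with 31.5%. The log2 fold change of Tnnt2 was -8.70 (SE 0.46), that of Tnni3 -8.28 (SE 0.35) and that of Tnnc1 -4.11 (SE 0.45), lower in SkM in 4 of 4 mice. The fast genes rose by 10.32 (Tnnt3, SE 0.29), 10.41 (Tnni2, SE 0.29) and 10.35 (Tnnc2, SE 0.25). Adjusted p by edgeR ranged from 2.48e-07 for Tnnc2 to 0.000468 for Tnnt1.

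The slow genes also differed between tissues, Tnni1 by 8.24 (SE 0.32) and Tnnt1 by 3.68 (SE 0.49) on the log2 scale, higher in SkM in 4 of 4 mice. In the mouse left out, WT replicate 2, Tnnt1 was at 5.20 CPM in SkM and 6.66 CPM in LV. These CPM lack the scaling between tissues that the fit uses, so that they do not settle the direction in that mouse. Their 95% intervals, 7.51 to 8.98 for Tnni1 and 2.54 to 4.83 for Tnnt1, did not overlap, and Tnnt1 was counted in every LV library at 5.21 to 6.91 CPM. With WT replicate 2 in the fit, the differences were 9.57, 9.63 and 9.53 for Tnnt3, Tnni2 and Tnnc2, 6.69 for Tnni1 and 3.07 for Tnnt1. Scaling by total counts moved the median of all genes by -0.65 and left all 8 directions as they were.

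Fast troponin RNA in WT LV replicate 2 was set against the SkM libraries. Tnnt3, Tnni2 and Tnnc2 were at 182, 181 and 167 times their highest value in the other LV libraries. The excess over the mean of the other LV libraries was 25.9% to 26.8% of the fast troponin levels in WT SkM replicate 1, and 15.7% to 18.1% of those in WT SkM replicate 2, the SkM library of the same mouse. The 8 fast fibre markers had a median excess of 23.4% of the WT SkM replicate 2 level, with a range from 16.3% to 44.4%. The excess of Tnni1 was 38.4% of its WT SkM replicate 2 level and 3.90% of its WT SkM replicate 1 level. The adipose markers summed to 267 CPM in WT LV replicate 2, to 8.86 CPM in WT SkM replicate 2 and to 1117 CPM in WT SkM replicate 1. Against E0del/+ SkM replicate 3 the fast troponins were at 20.7% to 22.6% and the markers at a median of 23.0%. In E0del/+ SkM replicates 1, 2 and 3 the excess of Tnni1 was 3.50%, 2.25% and 20.2% of its level there. Adipose markers summed to 281, 145 and 1141 CPM in these libraries.

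The cardiac genes were lower in that library, Tnnt2 at 69.2%, Tnni3 at 62.0% and Tnnc1 at 61.4% of the mean of the other LV libraries in CPM. Tnni1 was at 885% and Tnnt1 at 112% of that mean. All 3 fast troponins and all 8 fast fibre markers were thus raised together, and the cardiac troponins lay below the lowest of the other LV libraries. Where the fast fibre RNA of this library came from was not tested.

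**Figure D3:**
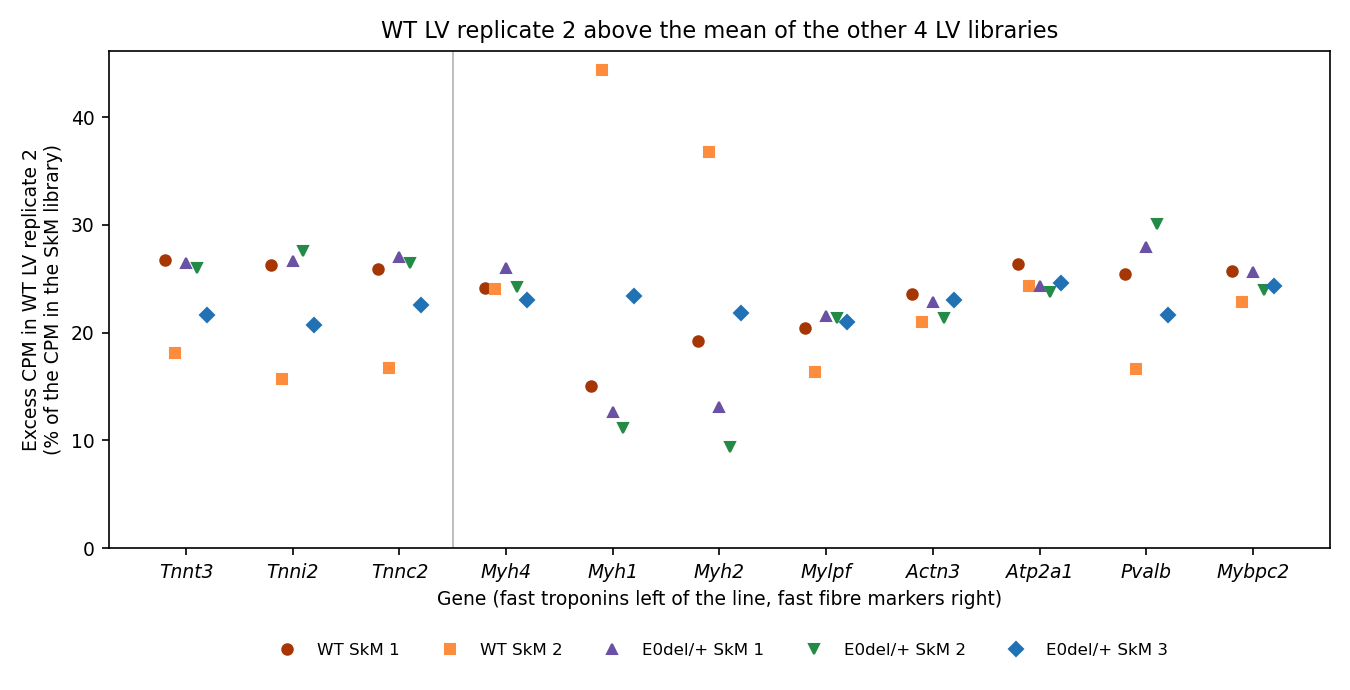
Excess of each fast troponin gene and fast fibre marker in WT LV replicate 2 over the mean of the other LV libraries, as percent of its CPM in each SkM library, 1 symbol per SkM library. Over all SkM libraries the fast troponins lie between 15.7% and 27.6% and the markers between 9.42% and 44.4%. Within an SkM library a fast troponin lay just outside the range of the markers in 3 of 5, WT replicates 1 and 2 and E0del/+ replicate 3.

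The slow troponins varied most among the SkM libraries. The highest value was 18.4 times the lowest for Tnnt1, 17.1 times for Tnni1 and 10.8 times for Tnnc1, against 1.48, 1.76 and 1.61 times for Tnnt3, Tnni2 and Tnnc2. All 3 genes gave the same order of libraries, from WT replicate 2, E0del/+ replicate 3, WT replicate 1 and E0del/+ replicate 1 to E0del/+ replicate 2. Myh7, the slow myosin, gave this order too, at 824 and 73.8 CPM in WT and 1193, 1548 and 160 CPM in E0del/+. So did Myl2, Myl3, Tpm3, Atp2a2 and Myoz2 among the 8 slow fibre markers, and Casq2 and Myl6b did not. The order was not limited to slow genes. The fast fibre markers Myh1 and Myh2, 2 of 8, also gave it, as did 295 (2.24%) of the 13154 genes tested in SkM.

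The slow fibre markers summed to 1578 and 226 CPM in WT SkM and 2279, 2795 and 428 CPM in E0del/+ SkM, led by Myh7 in all but WT replicate 2, where Atp2a2 led, and none was at 0. Myl2 and Myl3 are also on the ventricle list. In CPM, Tnnt1 was at 5.51% to 8.33% of Myh7, Tnni1 at 11.1% to 16.3% and Tnnc1 at 6.60% to 13.7%. Relative to Myh7, the slow troponins thus spanned less than their own range between libraries, and Tnnt1 and Tnnc1 were relatively highest in the 2 libraries with least Myh7, and Tnni1 in WT replicate 2 of these.

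The same 2 SkM libraries were low in Xist, the RNA of the inactive X chromosome, at 0.343 CPM in WT replicate 2 and 0.422 CPM in E0del/+ replicate 3, against 397, 364 and 278 CPM in WT replicate 1 and E0del/+ replicates 1 and 2. Y-linked genes summed to 158 and 177 CPM in the 2 libraries low in Xist and to 0.861 and 0.8 CPM in E0del/+ replicates 1 and 2. WT SkM replicate 1 held 21.6 CPM of them beside its Xist, and the LV library of that mouse 0.461 CPM. Whether WT SkM replicate 1 holds RNA of more than 1 mouse was not tested, and its slow shares, the SkM genotype fits and the tissue pair of that mouse are open to that doubt. Without WT replicate 1 all 8 troponin genes still passed the threshold between tissues, and SkM genotype values without it are given below. The part of sex, and of the muscle or fibres sampled, in the slow troponin levels was not tested.

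**Figure D4:**
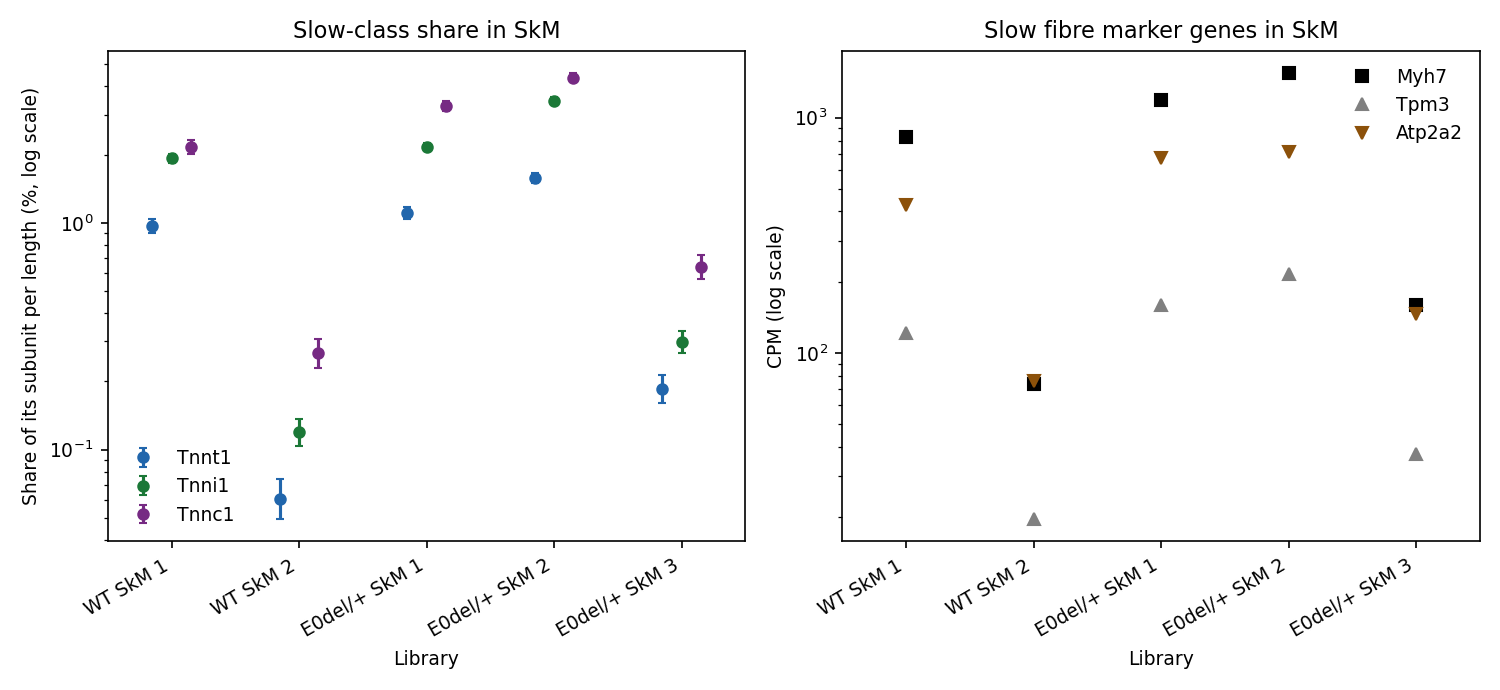
Left, share of Tnnt1, Tnni1 and Tnnc1 in their subunit (percent of counts per length, log axis) in the 5 SkM libraries, with Wilson 95% intervals as bars. Right, CPM (log axis) of the slow fibre markers Myh7, Tpm3 and Atp2a2 in the same libraries, and in both panels WT replicate 2 is lowest and E0del/+ replicate 2 highest.

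The next comparison asked whether the E0 deletion came with other troponin levels in LV. No troponin gene passed the threshold between genotypes in LV by edgeR's quasi-likelihood test, 0 of 8, against 0% of the 13420 genes tested. At an unadjusted p under 0.05 edgeR counted 564 of the 13420 genes, fewer than that level gives by chance alone. DESeq2's Wald test called 12 genes, 0.0894% of those tested, and 3 of them were Tnnt3, Tnni2 and Tnnc2. With the replicate block edgeR called 5 genes, none of them a troponin gene.

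Between genotypes in LV, the cardiac genes had log2 fold changes of 0.31 (Tnnt2, SE 0.23), 0.38 (Tnni3, SE 0.23) and 0.52 (Tnnc1, SE 0.22), each with an adjusted p of 0.997 by edgeR. Without WT LV replicate 2 these were 0.20, 0.20 and 0.40 with adjusted p of 1.00 by edgeR, a fit in which the lone WT library is assumed to vary as the E0del/+ libraries do. The cardiac genes were low in WT LV replicate 2, as given above, so that their difference between genotypes rested partly on that library.

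The fast genes had log2 fold changes of -6.78 (Tnnt3, SE 1.57), -6.86 (Tnni2, SE 1.60) and -6.83 (Tnnc2, SE 1.59) in LV, with adjusted p of 0.997 by edgeR and 0.0385 by DESeq2. Without WT LV replicate 2 they were 0.18, 0.21 and 0.14, so that this library set the size and the sign of these differences. With the replicate block they were -3.84, -3.88 and -4.36, and with the Xist block, added after seeing the data, -3.66, -3.78 and -3.90. Without WT LV replicate 1, with WT replicate 2 as the only WT library, they were -7.77, -7.85 and -7.82. These 3 genes and Tnni1, at -3.01, then passed the threshold by edgeR, 4 of 8 against 4.11% of 14050 genes. The spread of the lone WT library is taken from the E0del/+ libraries in that fit, and the library is the one set apart by its fast fibre RNA, so that these calls restate its difference and say nothing of the genotype.

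The slow genes Tnnt1 and Tnni1 had log2 fold changes of -0.33 (SE 0.25) and -2.07 (SE 0.96) in LV. Without WT replicate 2 these were -0.28 and 1.16, the latter on 4 to 15 counts per library. CPM values of the 2 genotypes did not overlap in LV for 3 of 8 genes, Tnnt2 and Tnnc1 higher and Tnnt1 lower in E0del/+, against 15.4% of the genes tested.

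The slow share of troponin T in LV was 0.112% ± 0.00498 in WT (n = 2) and 0.0828% ± 0.0102 in E0del/+ (n = 3), a difference of -0.0288 points, and -0.0323 points without WT replicate 2. The exact two-sided permutation test gave p = 0.1, the smallest that 10 assignments of 5 libraries allow. Within batches 1 and 2 the difference was -0.0286 and -0.0369 points. The interval of the lowest E0del/+ library, 0.0554 to 0.0917, did not overlap that of WT replicate 1, 0.0937 to 0.142, and all other pairs of WT and E0del/+ libraries overlapped. The slow share of troponin I differed by -0.0574 points (0.0782% ± 0.0955 in WT and 0.0209% ± 0.0105 in E0del/+, p = 0.4 by the exact permutation test), and by 0.0101 points without WT replicate 2. It was 0.0219 and -0.128 points within batches 1 and 2, so that its sign was not shared by the batches.

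The same comparison was made in SkM. No troponin gene passed the threshold by edgeR's quasi-likelihood test, 0 of 8, against 0% of the 13154 genes tested. At an unadjusted p under 0.05 edgeR counted 114 of the 13154 genes, fewer than that level gives by chance alone. DESeq2 called 0 genes, with 151 at that level. With the replicate block edgeR called 1 gene, which was not a troponin gene.

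Between genotypes in SkM, Tnnt1, Tnni1 and Tnnc1 had log2 fold changes of 1.03 (SE 1.11), 1.00 (SE 1.14) and 1.19 (SE 0.92), with adjusted p of 1.00 by edgeR. The 95% interval for Tnnt1 ran from -1.72 to 3.79, so that this fit did not tell a large difference in either direction from none. Without WT SkM replicate 2 the values were 0.19, 0.17 and 0.48, and without WT SkM replicate 1 they were 3.37, 3.21 and 2.65. Without E0del/+ SkM replicate 2 the values were 0.41, 0.30 and 0.63. The size of the difference thus depended on which libraries were kept. With the replicate block the values were 2.11 (SE 0.88, 95% interval -0.01 to 4.23), 2.08 (SE 0.89, -0.05 to 4.21) and 1.95 (SE 0.62, 0.47 to 3.44). Their unadjusted p by edgeR was 0.0505, 0.054 and 0.0174 and their adjusted p 0.999. With a block by Xist level, chosen after seeing that the slow troponins follow it, they were 0.87 (SE 0.27, 95% interval 0.19 to 1.56), 0.72 (SE 0.26, 0.06 to 1.38) and 0.85 (SE 0.21, 0.29 to 1.40). Their unadjusted p by edgeR was 0.0223, 0.0387 and 0.0112 and their adjusted p 1.00, and each Xist level held 1 WT library.

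The fast genes had log2 fold changes of -0.21 (Tnnt3, SE 0.29), -0.35 (Tnni2, SE 0.33) and -0.34 (Tnnc2, SE 0.29) in SkM. Without WT SkM replicate 2, the library with the highest fast troponins, they were 0.27, 0.23 and 0.17. Without WT SkM replicate 1 they were -0.56, -0.77 and -0.71, in a fit whose lone WT library is assumed to vary as the E0del/+ libraries do. As with the slow genes, the size depended on which WT library was kept, and here the sign did too. The cardiac genes Tnnt2 and Tnni3 had log2 fold changes of 0.90 (SE 0.52) and 0.95 (SE 0.46) at low levels in SkM. Without WT SkM replicate 1 these were 0.65 and 0.84. Without E0del/+ SkM replicate 1, the library with the highest Tnnt2 and ventricle markers, they were 0.27 and 0.51, and with the replicate block 1.08 (95% interval 0.03 to 2.12) and 1.16 (0.13 to 2.19), with adjusted p of 0.999 by edgeR. The 5 ventricle markers tested had a median of 0.98 between genotypes in SkM with all libraries. Values of the genotypes did not overlap for 1 of 8 genes, Tnni3, against 11.4% of the genes tested.

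The slow share of troponin T in SkM was 0.514% ± 0.641 in WT (n = 2) and 0.957% ± 0.71 in E0del/+ (n = 3), a difference of 0.443 points with p = 0.4 by the exact permutation test. The slow share of troponin I differed by 0.948 points (1.02% ± 1.28 in WT and 1.97% ± 1.59 in E0del/+), and the Tnnc1 share of troponin C by 1.54 points (1.22% ± 1.35 and 2.76% ± 1.92), each with p = 0.4 by the same exact test. With 1 library left out in turn they ranged from -0.00987 to 0.897 points for T, from 0.0457 to 1.85 points for I and from 0.589 to 2.60 points for C. Each of these differences was smaller than the spread between libraries of 1 genotype, with the sole exception of troponin C against the WT spread. Within batches 1 and 2 the differences were 0.138 and 1.52 points for T, 0.236 and 3.33 points for I, and 1.10 and 4.10 points for C. Of 5 share tests in LV and SkM, all had a Benjamini-Hochberg adjusted exact permutation p of 0.4.

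**Figure D5:**
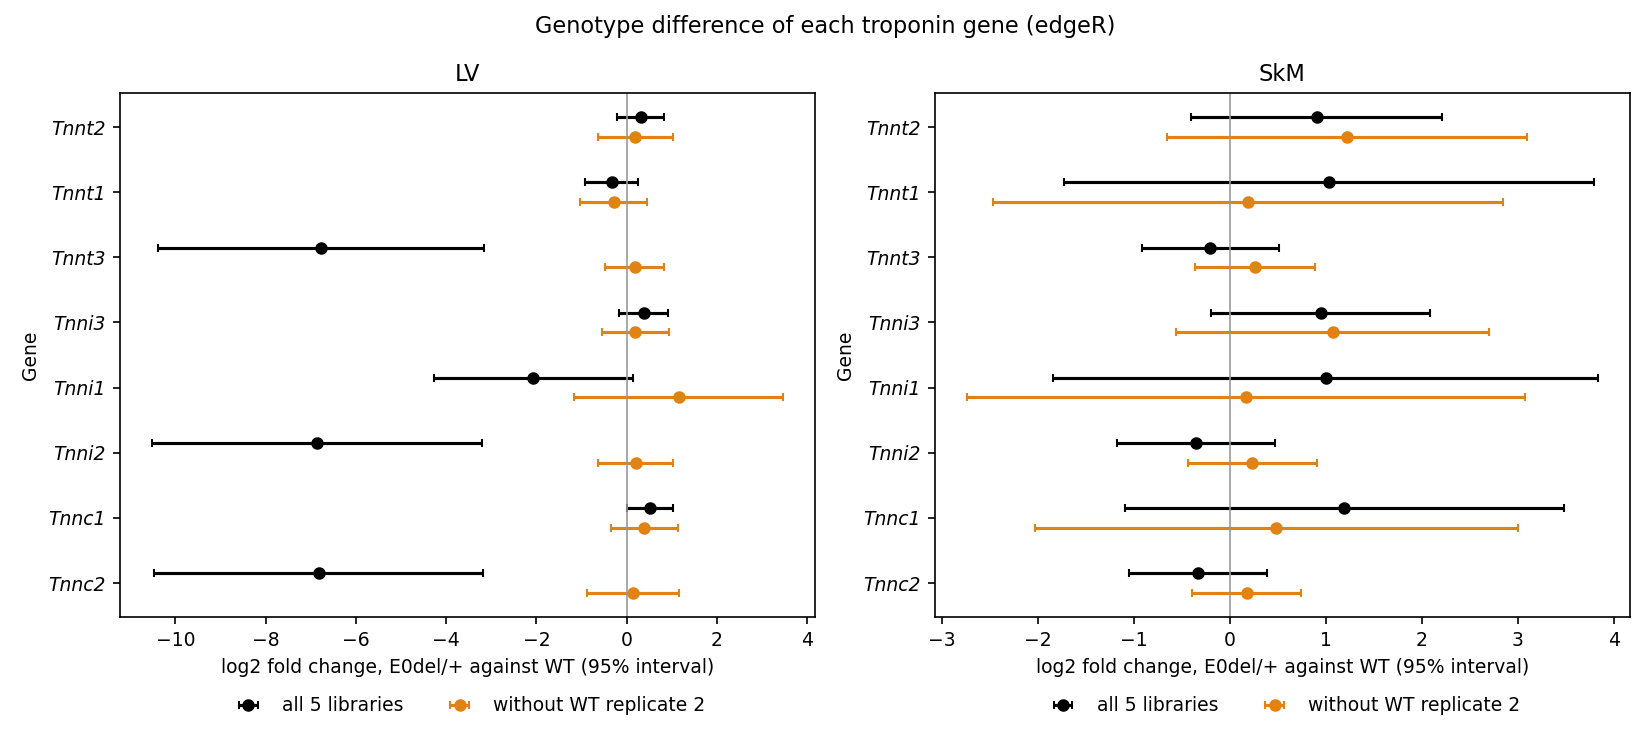
Log2 fold change of each troponin gene, E0del/+ against WT, in LV and SkM, with all libraries and without WT replicate 2. Bars are 95% intervals. The fast genes in LV move from near -6.8 to near 0.2 when WT replicate 2 is left out.

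The genes that act with troponin were counted in the tissue comparison, beside a median log2 difference of -0.02 over all 13375 genes, of which 29.8% were higher and 31.5% lower in SkM. Of 12 thin filament partners 9 were higher and 3 lower in SkM, with a median of 1.39, Neb (nebulin) at 9.38 and Tpm2 (beta tropomyosin) at 8.35 among the higher and Nebl (nebulette) at -7.96 among the lower. Of 12 calcium supply and removal genes 6 were higher and 6 lower, with a median of 0.03, Ryr1 at 10.66 and Ryr2 at -8.93 being the release channels of skeletal muscle and heart. Of 12 kinases, phosphatases and proteases that act on troponin 5 were higher, 3 lower and 4 not called, with a median of 0.38. Tnni3k, a kinase that binds cardiac troponin I, was at -8.61 and Pak1 at 5.63. Of 8 splicing factors of troponin T 5 were higher, 1 lower and 2 not called, with a median of 0.84, Rbfox1 at 2.97 and Mbnl1 at 2.09. By total counts without TMM 12.7% of all genes were higher and 57.4% lower, with a median of -0.67. The lists then held 7 higher and 3 lower partners, 6 and 6 calcium genes, 3 and 5 kinases, phosphatases and proteases, and 4 and 3 splicing factors, with medians of 0.74, -0.61, -0.27 and 0.19. The small differences of these lists thus rested on the scaling. Between genotypes edgeR called 0 genes of these 4 lists in LV or SkM, as it did over all genes, with 564 and 114 of all genes at an unadjusted p under 0.05 and 12 and 0 called by DESeq2.

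Over the 10 libraries, the genes most like each troponin gene were found by Pearson's r of log2(CPM + 0.5) among 8638 genes. The libraries form 2 tissue groups from 5 mice, so that r mostly describes the tissue difference. Tnnt2 and Tnni3 were nearest to Fhl2 (r = 0.999 for each), followed by Nkx2-5 and Mybpc3 for Tnnt2 and by Acaa2 and Fabp3 for Tnni3. Tnnt3, Tnni2 and Tnnc2 had Myoz1 and Pvalb among their nearest 3 genes, with Myh4, Mylpf and Myl1 as the third. Tnnc1 was nearest to Myh7b (r = 0.998), followed by Myl3 and Myoz2. Tnnt1 was nearest to Nin (r = 0.971), followed by Myom3 and 4732418C07Rik, and Tnni1 to Fhl1 (r = 0.988), followed by Ppp1r1a and Six4. For Tnnt1 and Tnni1 no gene had r above 0.99, against 64 to 169 genes for the fast and the cardiac T and I genes and Tnnc2, and 15 for Tnnc1.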

How the data were processed

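Poly-A RNA from LV and SkM was sequenced after Nextera XT library construction, which does not mark strand. The authors deposited raw counts and RPKM per gene for each library. STAR, DESeq2 and mm10 are named in the submitters' processing notes, with no version, and the counting software and annotation are not given in the sources used here. The deposited RPKM equalled CPM per kilobase of summed exon length, with a largest difference of 4.91e-11.

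CPM, shares and sums were computed from the raw counts of 23337 genes. A share is a gene's count per length divided by that of all genes of its subunit. Its 95% Wilson interval was computed on counts and carried to the per-length scale. Genotypes were compared within each tissue, and tissues with the mouse as a block, by edgeR 4.0.16 (R 4.3.3) with filterByExpr, TMM scaling and the quasi-likelihood test. Benjamini-Hochberg adjustment ran over all genes tested, with a threshold of 0.05. The tissue comparison left out WT replicate 2. DESeq2 1.42.0, other scalings, no filter, blocks and each library left out in turn were the alternatives. Shares were compared by an exact permutation test over all assignments of libraries to genotypes. Its code was checked against scipy 1.17.1 on a made-up example. The edgeR fits of the main comparisons were tested on simulated data.

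Batch numbers come from the labels and equal the replicate numbers, so same-numbered libraries were taken as paired by batch. The correlation of their deviations from the group means over genes was 0.0721 and -0.141 in LV and 0.592 and 0.320 in SkM, for batches 1 and 2. Batch 3 held E0del/+ libraries only. WT and E0del/+ animals are separate mice, and both tissues came from the same mice by their library names.

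The text names all 8 troponin genes, up to 4 genes of each list with the largest change past the threshold of the tissue comparison, and the 3 genes most correlated with each troponin gene. Lists covered thin filament partners, calcium supply and removal, kinases, phosphatases and proteases of troponin, splicing factors of troponin T, and markers of ventricle, atrium, fast, slow and immature fibre, smooth muscle, blood, adipose, endothelium, fibroblast and Schwann cell. The members and lists were chosen with earlier results of these data known. Other genes named beside a troponin result were chosen after their values were seen.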

Additional observations from a re-analysis of the deposited data

Results flagged for a closer look

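In each tissue's 5 libraries, the level and the subunit share of each troponin gene were checked for a library far from the other 4. Of 32 such groups 13 held one, and chance alone marks about 1 in 20 groups. WT LV replicate 2 was far from the others in 11 of them, and it was set apart before by its fast fibre markers, so that the count restates that and is not set against the chance rate. Its CPM was highest for Tnnt3 (1868), Tnni1 (5.22), Tnni2 (956) and Tnnc2 (627). Its share was lowest for Tnnt2 (74.6%), Tnni3 (55.3%) and Tnnc1 (59.7%), and highest for Tnnt3 (25.3%), Tnni1 (0.146%), Tnni2 (44.6%) and Tnnc2 (40.3%). Shares within a subunit add up to 100, so that these are not separate observations. E0del/+ SkM replicate 1 was far from the others in Tnnt2, with a CPM of 30.3 and a share of 0.399%. The cause of these values was not tested.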

How the results depend on the processing

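In the tissue comparison all 80 refitted values of the 8 troponin genes kept their direction and stayed past the threshold. Of 87 refitted LV genotype values 76 kept direction and side of the threshold and 7 passed it with the same sign. The 76 include Tnnt1 and Tnni1 by DESeq2, which kept direction but were given no adjusted p. Of 88 such SkM values 85 were unchanged in both. Of 40 refitted share differences 38 kept their direction. No share could pass the threshold, since the exact p cannot go below 0.1, and the replicate block gave no p. The exceptions were these. Those that passed the threshold came from DESeq2 and from the fit without WT LV replicate 1, given above. The others changed sign. Without WT replicate 2 the LV log2 fold change became 0.18 for Tnnt3, 1.16 for Tnni1, 0.21 for Tnni2 and 0.14 for Tnnc2, and over all libraries left out it ranged from -7.77 to 0.18, -3.01 to 1.16, -7.85 to 0.21 and -7.82 to 0.14. In SkM it became 0.27 for Tnnt3, 0.23 for Tnni2 and 0.17 for Tnnc2, with ranges from -0.56 to 0.27, -0.77 to 0.23 and -0.71 to 0.17. The slow share of T in SkM ranged from -0.00987 to 0.897 points, and that of I in LV from -0.125 to 0.0101 points. Values that kept their sign also moved with a library left out. The slow share of I in SkM ranged from 0.0457 to 1.85 points, and the Tnnc1 share in SkM from 0.589 to 2.60 points. In LV the log2 fold change ranged from 0.20 to 0.44 for Tnnt2, 0.20 to 0.60 for Tnni3, 0.40 to 0.66 for Tnnc1 and -0.46 to -0.24 for Tnnt1. In SkM it ranged from 0.27 to 1.22 for Tnnt2, 0.51 to 1.17 for Tnni3, 0.19 to 3.37 for Tnnt1, 0.17 to 3.21 for Tnni1 and 0.48 to 2.65 for Tnnc1.

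Genes called between genotypes in LV numbered 0, 12 by DESeq2, 5 with the replicate block, and 0 to 578 with a library left out. In SkM they numbered 0, and 1 with the replicate block, and 0 with any library left out. The block, which pairs libraries by batch, changed no call of a troponin gene. Genes called between tissues numbered 8202, and 6895 to 7931 with a mouse left out. By total counts 1698 were higher and 7683 lower, against 3991 and 4211. A block by Xist level, chosen after seeing the data, called 0 genes in either tissue by edgeR. At an unadjusted p under 0.05 it counted 489 in LV and 306 in SkM, fewer than that level gives by chance alone. DESeq2 called 12 and 0 without that block. The 95% interval of Tnnt1 in SkM ran from -1.72 to 3.79 without the Xist block and from 0.19 to 1.56 with it, with an adjusted p of 1.00 by edgeR in both, and from -0.01 to 4.23 with the replicate block. Tnni1 was too low for the LV fit without E0del/+ replicate 1, which tested 7 troponin genes. The cause of these changes was not tested. With 2 WT libraries a tissue, the exact share test cannot go below 0.1, and Tnni1 in LV rests on 4 to 58 counts.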

Other observations

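Markers of other cell types were counted in the tissue comparison, SkM against LV, by edgeR's quasi-likelihood test, in which 29.8% of all 13375 genes were higher and 31.5% lower in SkM. All 4 markers of immature fibres were higher in SkM, at low levels, Myh8 at 7.04 ± 1.5 CPM (SD, n = 5), and Myog was at 0 in the 4 LV libraries without WT replicate 2, which had 14 counts. All 6 ventricle markers were lower (median -7.81) and all 8 fast fibre markers higher (median 10.35). Of 8 slow fibre markers 2 were higher, 5 lower and 1 not called (median -3.82). Of the atrium markers 1 was higher (Sln, 3.44), 1 lower (Nppa, -6.29) and 1 not called (median 0.48). All 3 endothelium markers were lower (median -1.91), as were all 4 fibroblast markers (median -1.42). Of 4 smooth muscle markers 1 was lower (Acta2, -1.42) and 3 not called (median -0.08). Of the adipose markers 4 of 4 tested were higher (median 5.81), and of 3 Schwann cell markers 2 were higher and 1 not called (median 1.80). The 1 blood marker tested was not called (-0.82). By total counts without TMM 12.7% of all genes were higher and 57.4% lower, and the counts of the smooth muscle (0 higher, 2 lower), blood (0 and 1) and Schwann cell (1 and 1) lists changed, and those of the other lists did not. Between genotypes edgeR called 0 of these markers in either tissue, as it did over all genes, with 564 (LV) and 114 (SkM) of all genes at an unadjusted p under 0.05 and 12 and 0 called by DESeq2.

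Y-linked genes summed to 21.6 CPM in WT SkM replicate 1, which also held 397 CPM of Xist. The LV library of that mouse held 0.461 CPM of Y-linked genes and 518 CPM of Xist. WT SkM replicate 2, which held 0.343 CPM of Xist, had 158 CPM of Y-linked genes.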
